A study of Homo sapiens with 6 samples.

Results

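Messenger RNA of 8 transcription factors of the foregut and liver, HNF4A, HNF4G, FOXA1, FOXA2, FOXA3, CEBPA, CEBPB and PROX1, was compared between DMS53 cells with and without enforced expression of OC2, the protein of ONECUT2. The members were listed by name, as the HNF4 and FOXA genes, PROX1 and, of the CEBP family, CEBPA and CEBPB, and not by a rule on their change. They are 8 of the 62696 genes counted, and the other CEBP genes are described beside them. DMS53 is an established line of small cell lung cancer (SCLC), a tumour with neuroendocrine (NE) features. Control cells received the empty lentiviral vector, OC2-OE cells received the same vector carrying an mGFP-tagged human ONECUT2 reading frame, and both were selected with puromycin. Each group had 3 RNA-Seq libraries, numbered 1 to 3. The comparison is thus of one cell line in culture and of an introduced, tagged gene, not of a change in the endogenous gene. The paper calls the RNA-Seq experiments independent, with 3 per condition. The labels do not state whether the libraries of a group came from separate transductions, so p-values measure the spread between these libraries. Between libraries of the same group, chi-square per degree of freedom over genes ran from 1.32 to 2.07, where counting noise alone gives about 1. Between libraries of different groups it ran from 94.1 to 104. The p-values rest on this small spread within groups.

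ONECUT factors are homeodomain proteins with a cut domain, known in the liver as hepatocyte nuclear factor 6 for their founding member, ONECUT1. In the developing foregut they act in a network of transcription factors that regulate one another. FOXA factors are forkhead proteins that can bind sites in closed chromatin and prepare liver, lung and pancreas genes for use. HNF4 factors are nuclear receptors that hold the differentiated state of hepatocytes and gut epithelium. CEBP factors are leucine zipper proteins of hepatocyte maturation and inflammation, and PROX1 is a homeodomain protein needed for hepatoblast migration and lymphatic endothelial identity.

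Promoter windows of the members were read from RefSeq on GRCh38.p14, from 250 bases before to 50 bases after a start, and 7 windows of 5 members matched by symbol (HNF4A, FOXA1, FOXA3, CEBPA and CEBPB). They were searched on both strands for the ONECUT motifs ATCAAT and ATCGAT. The 2 windows of HNF4A are shown because they were the only ones of the 7 with an ONECUT match, which is in capitals. One window each of CEBPA and CEBPB, the members that changed most, is shown with the letters TATAAA in capitals. The other CEBPB window had none of the motifs searched and is not shown.
HNF4A, chr20:44355449-44355748, plus strand: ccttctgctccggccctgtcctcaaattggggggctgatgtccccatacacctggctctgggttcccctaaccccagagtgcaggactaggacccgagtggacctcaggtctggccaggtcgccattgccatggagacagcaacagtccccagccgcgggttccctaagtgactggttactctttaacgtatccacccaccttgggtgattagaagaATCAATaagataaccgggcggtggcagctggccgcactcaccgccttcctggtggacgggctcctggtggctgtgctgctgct
HNF4A, chr20:44400989-44401288, plus strand: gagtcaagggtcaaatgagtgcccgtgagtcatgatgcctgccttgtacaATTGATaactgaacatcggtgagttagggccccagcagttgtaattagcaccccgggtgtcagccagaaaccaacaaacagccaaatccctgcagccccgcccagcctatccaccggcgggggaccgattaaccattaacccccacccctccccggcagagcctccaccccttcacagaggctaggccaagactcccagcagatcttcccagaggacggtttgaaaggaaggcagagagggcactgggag
CEBPA, chr19:33302485-33302784, minus strand: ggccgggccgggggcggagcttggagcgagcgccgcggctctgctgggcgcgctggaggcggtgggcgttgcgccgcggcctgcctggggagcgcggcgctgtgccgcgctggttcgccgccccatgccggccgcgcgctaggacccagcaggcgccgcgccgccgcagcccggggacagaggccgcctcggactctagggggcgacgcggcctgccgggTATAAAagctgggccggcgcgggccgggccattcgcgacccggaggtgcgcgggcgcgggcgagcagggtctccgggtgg
CEBPB, chr20:50190580-50190879, plus strand: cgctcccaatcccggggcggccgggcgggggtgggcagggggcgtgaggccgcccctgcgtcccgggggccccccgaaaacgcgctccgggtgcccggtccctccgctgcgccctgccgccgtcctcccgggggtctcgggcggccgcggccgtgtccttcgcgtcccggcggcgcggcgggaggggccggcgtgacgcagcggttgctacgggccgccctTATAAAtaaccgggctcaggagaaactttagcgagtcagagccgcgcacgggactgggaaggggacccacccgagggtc

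In the HNF4A window at chr20:44355449-44355748, ATCAAT began 33 bases before the start. In the window at chr20:44400989-44401288 it lay on the opposite strand, as ATTGAT, with its leftmost base 200 bases before the start. ATCAAT on either strand was present in 6.26% of the 35116 promoter windows and ATCGAT in 0.763%. The motifs TGTTTAC and TATTTAC of FOXA factors, CAAAGTCC of HNF4 factors and TTGCNNAA of CEBP factors had no match in the 7 windows, and were present in 3.42%, 2.67%, 1.20% and 10.5% of all windows. TATAAA, a form of the TATA box that was searched for after the windows had been seen, began 30 bases before the start in CEBPA and FOXA3 and 29 bases before it in the CEBPB window shown. It was present in 11.5% of all windows. The GC content was 80.7% in the CEBPA window, 77.0% and 76.7% in those of CEBPB, 76.3% in that of FOXA3, 69.3% in that of FOXA1 and 60.0% and 57.7% in those of HNF4A, against a median of 58.7% over all windows. The counts sum all transcripts of a gene, so which HNF4A start was used cannot be told from them. These matches describe letters in the sequence and carry no test.

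Libraries held between 16533284 and 19099337 counted read pairs. Values are given as CPM, counts scaled to a common library size by edgeR's TMM method. Levels of different genes are compared as FPKM, the CPM per kilobase of exon, except where division by length is said to be left out. Of the 17307 genes that passed the filter on low counts, 9776 (56.5%) were called at a Benjamini-Hochberg adjusted p under 0.001 by the quasi-likelihood test of edgeR, with 27.8% of tested genes higher and 28.7% lower in OC2-OE. Groups did not overlap in 73.2% of tested genes, and 17.3% were called and had a log2 fold change of 1 or more in either direction. ONECUT2 itself rose from 24.6 ± 0.332 CPM (SD, n = 3) to 3944 ± 70.3 CPM, with reads from the introduced and the endogenous gene in the same count. In bulk RNA, less RNA per cell and fewer cells with the transcript cannot be told apart. Of 11 NE markers all were tested, 2 rose and 8 fell. Their summed level went from between 6434 and 6478 CPM to between 5789 and 5881 CPM. This sum hides larger changes of single markers, named after their values had been seen. CALCA, its largest part, fell from a mean of 3774 to 2630 CPM. SCG2 rose from 801 to 2273 CPM and CHGA from 72.2 to 150 CPM. The largest relative falls were in GRP (132 to 6.24 CPM), DDC (503 to 87.3), NCAM1 (164 to 41.2) and INSM1 (329 to 86.6). Summed markers of other cell types went from between 21.2 and 23.9 CPM to between 28.1 and 32.1 CPM for fibroblasts (2 of 3 tested higher), from between 12.7 and 15.1 CPM to between 4.17 and 4.73 CPM for blood endothelium (2 of 3 tested lower) and from between 3.8 and 4.43 CPM to between 7.33 and 9.28 CPM for leukocytes (2 of 2 tested higher). Their part in the results was not tested.

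All 8 members passed the filter on low counts and all 8 were called, 5 higher and 3 lower in OC2-OE, where 56.5% of all tested genes were called. HNF4A, HNF4G, CEBPA, CEBPB and PROX1 rose, and the 3 FOXA genes fell. In each of the 8 the control and OC2-OE libraries did not overlap, as in 73.2% of all tested genes. Only CEBPA and CEBPB also had a log2 fold change of 1 or more in either direction. The members' median log2 fold change was 0.26 and their median absolute log2 fold change 0.61, against 0.01 and 0.38 over all tested genes.

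**Figure D1:**
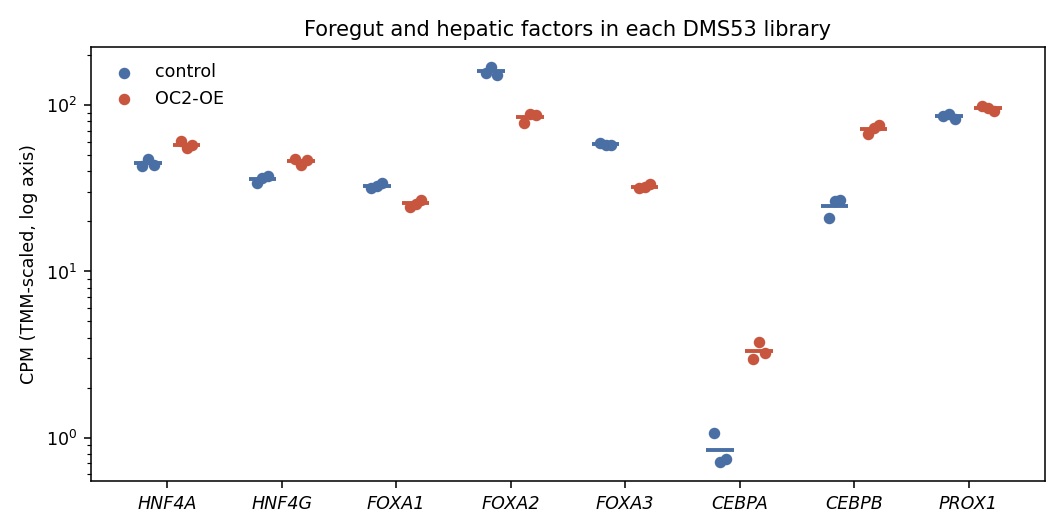
Level of each member in every library, as TMM-scaled CPM on a log axis, with 3 control (blue) and 3 OC2-OE (red) libraries per gene and a bar at each mean. No member has overlapping groups. FOXA2 falls from 160 to 84.9 CPM and CEBPB rises from 24.9 to 72.4 CPM.

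The CEBP factors showed the greatest rises among the members. CEBPB, a factor of the acute phase and of inflammatory cytokine responses (chr20:50190830-50192668, plus strand), was counted at 21.1, 26.6 and 27.1 CPM in control replicates 1, 2 and 3 and at 67.7, 72.8 and 76.7 CPM in OC2-OE replicates 1, 2 and 3. Every OC2-OE library stood well above every control library, and control replicate 1 was the lowest of the 6. The mean rose from 24.9 ± 3.29 CPM (SD, n = 3) to 72.4 ± 4.54 CPM, a 2.92-fold rise and a log2 fold change of 1.54 (standard error 0.060, edgeR adjusted p = 3.22e-29). Of all tested genes, 9.03% had a larger absolute change.

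CEBPA, the factor that drives hepatocyte and granulocyte maturation and restrains proliferation (chr19:33299934-33302534, minus strand), was low throughout. It had 20, 12 and 12 counts in control libraries against 57, 65 and 59 in OC2-OE libraries, which is 1.07, 0.717 and 0.738 CPM against 2.97, 3.75 and 3.24 CPM. The OC2-OE libraries were all higher, and control replicate 1 was the highest control. The mean went from 0.842 ± 0.198 CPM (SD, n = 3) to 3.32 ± 0.395 CPM, a log2 fold change of 1.95 (standard error 0.25, edgeR adjusted p = 5.80e-12). The 3.87-fold rise was the highest of the 8 members in relative terms and the lowest in level reached, with 44 counts over the control group and 181 over OC2-OE.

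The other CEBP factors did not move as one. CEBPG, a partner that lacks a transactivation domain of its own, rose from 171 ± 5.83 CPM (SD, n = 3) to 300 ± 0.625 CPM, a log2 fold change of 0.81 (standard error 0.027, edgeR adjusted p = 7.63e-55). DDIT3, the CEBP homologous protein of the unfolded protein response, rose from 55.4 ± 2.92 to 142 ± 8.86 CPM, a log2 fold change of 1.36 (standard error 0.041, edgeR adjusted p = 1.70e-47). Both had all OC2-OE libraries above all control libraries. CEBPD, an acute phase factor often induced together with CEBPB, had overlapping groups at 7.92 ± 0.866 CPM (SD, n = 3) and 7.53 ± 0.236 CPM, a log2 fold change of -0.07 (standard error 0.12, edgeR adjusted p = 0.601). CEBPZ, a ribosome biogenesis protein that shares the name but has no leucine zipper of the family, fell by 0.14 on the log2 scale (edgeR adjusted p = 0.000711), a call that 10 of 15 other settings did not keep. CEBPE, a granulocyte factor, had 0 counts in all 6 libraries, which allows up to about 3 expected counts summed over the libraries of each group. Of these 5 relatives, 4 were tested, 2 rose and 1 fell.

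All 3 FOXA factors were lower in OC2-OE. FOXA2, the FOXA factor of definitive endoderm and of liver and lung epithelium (chr20:22580998-22585455, minus strand), was at 157, 170 and 153 CPM in control libraries against 78.5, 88.5 and 87.7 CPM in OC2-OE libraries. The groups lay far apart relative to the spread within each, and OC2-OE replicate 1 was the lowest library. The mean went from 160 ± 8.91 CPM (SD, n = 3) to 84.9 ± 5.58 CPM, a 1.89-fold lower level and a log2 fold change of -0.92 (standard error 0.038, edgeR adjusted p = 5.50e-31).

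FOXA3, which is expressed in liver and gut and drives glucose and lipid genes (chr19:45863989-45873797, plus strand), was at 59.0, 57.6 and 58.1 CPM in control libraries against 31.6, 32.3 and 33.4 CPM in OC2-OE libraries. Within each group the libraries were close together. The mean went from 58.2 ± 0.730 CPM (SD, n = 3) to 32.4 ± 0.937 CPM, a log2 fold change of -0.85 (standard error 0.051, edgeR adjusted p = 2.60e-31).

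FOXA1, which acts with steroid receptors in breast and prostate and with FOXA2 in the lung (chr14:37589552-37596059, minus strand), was at 31.9, 32.5 and 33.9 CPM in control libraries against 24.6, 25.5 and 27.1 CPM in OC2-OE libraries. Its groups were nearer to each other than those of FOXA2 or FOXA3 but still did not overlap. The mean went from 32.8 ± 1.02 CPM (SD, n = 3) to 25.7 ± 1.27 CPM, a log2 fold change of -0.35 (standard error 0.061, edgeR adjusted p = 2.82e-07). In 53.2% of tested genes the absolute change was larger than that of FOXA1, against 21.1% for FOXA2 and 23.3% for FOXA3.

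Both HNF4 genes rose by about the same small amount. HNF4A, the HNF4 receptor of hepatocytes and gut (chr20:44355699-44432845, plus strand), was at 43.4, 47.6 and 43.9 CPM in control libraries against 61.0, 55.4 and 57.6 CPM in OC2-OE libraries. OC2-OE replicate 2 and control replicate 2 were the nearest pair across groups. The mean rose from 45.0 ± 2.27 CPM (SD, n = 3) to 58.0 ± 2.82 CPM, a 1.29-fold rise and a log2 fold change of 0.37 (standard error 0.049, edgeR adjusted p = 2.79e-11).

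HNF4G, the paralogue found mainly in gut and kidney (chr8:75407914-75566834, plus strand), was at 33.9, 36.7 and 37.6 CPM in control libraries against 47.5, 43.8 and 47.0 CPM in OC2-OE libraries. As for HNF4A, OC2-OE replicate 2 was the lowest of its group and was above every control library. The mean rose from 36.0 ± 1.93 CPM (SD, n = 3) to 46.1 ± 2.0 CPM, a 1.28-fold rise and a log2 fold change of 0.36 (standard error 0.053, edgeR adjusted p = 2.31e-09). Changes of this size or larger were common, with 50.9% of tested genes above HNF4A and 52.1% above HNF4G in absolute change.

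PROX1 (chr1:213983181-214041510, plus strand) had the smallest change. It was at 86.7, 88.2 and 82.6 CPM in control libraries against 98.7, 95.9 and 93.0 CPM in OC2-OE libraries. All OC2-OE libraries were above all control libraries, by a margin similar to the spread within a group. The mean went from 85.8 ± 2.90 CPM (SD, n = 3) to 95.9 ± 2.88 CPM, a 1.12-fold rise and a log2 fold change of 0.16 (standard error 0.038, edgeR adjusted p = 0.000101). Without control replicate 3 the log2 fold change was 0.13 (adjusted p = 0.00331), without OC2-OE replicate 1 it was 0.14 (adjusted p = 0.00258), and by DESeq2's Wald test it was 0.16 (adjusted p = 0.00165), so that the call did not hold in these settings.

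Per kilobase of exon the order of the members changed between groups. In control cells FOXA2 was the highest at 58.8 ± 3.28 FPKM (SD, n = 3), followed by FOXA3 at 27.4 ± 0.343, CEBPB at 13.6 ± 1.79 and PROX1 at 9.60 ± 0.325 FPKM. HNF4G at 7.51 ± 0.402 and FOXA1 at 7.42 ± 0.230 FPKM had overlapping libraries, HNF4A followed at 4.42 ± 0.224 FPKM, and CEBPA was the lowest at 0.324 ± 0.0762 FPKM. In OC2-OE cells CEBPB was the highest at 39.4 ± 2.47 FPKM (SD, n = 3), above FOXA2 at 31.2 ± 2.05, FOXA3 at 15.2 ± 0.441 and PROX1 at 10.7 ± 0.322 FPKM. HNF4G was at 9.61 ± 0.416 FPKM, FOXA1 at 5.83 ± 0.287 and HNF4A at 5.71 ± 0.277 FPKM had overlapping libraries, and CEBPA was again the lowest at 1.28 ± 0.152 FPKM. CEBPB thus moved from below FOXA3 to above FOXA2, and no other neighbours in this order had exchanged places beyond their spread.

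Summed over each family, the level of the 3 FOXA factors was 92.9, 96.9 and 91.1 FPKM in control libraries against 49.3, 53.5 and 54.1 FPKM in OC2-OE libraries. The OC2-OE mean was 0.559 of the control mean, with no overlap between groups (exact permutation test, two-sided, p = 0.10, the smallest that 3 against 3 libraries allow). The 2 HNF4 factors together went from 11.9 ± 0.531 FPKM (SD, n = 3) to 15.3 ± 0.672 FPKM, a ratio of 1.28 (exact permutation p = 0.10). CEBPA, CEBPB, CEBPD, CEBPE and CEBPG together went from 62.4 ± 1.10 FPKM (SD, n = 3) to 121 ± 2.73 FPKM, a ratio of 1.93 (exact permutation p = 0.10).

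Shares of the family sums, per kilobase of exon, had no overlap between groups for FOXA1, FOXA2, CEBPA, CEBPB, CEBPD and CEBPG, and overlapped for FOXA3 and the HNF4 genes. FOXA2 held 62.8 ± 1.48% of the FOXA sum in control cells and 59.7 ± 1.15% in OC2-OE cells, and FOXA1 went from 7.94 ± 0.435% to 11.1 ± 0.322% (n = 3 each, exact permutation p = 0.10 for either). FOXA3 kept 29.3 ± 1.14% and 29.2 ± 0.888% (exact permutation p = 1.00). HNF4A held 37.1 ± 1.32% of the HNF4 sum in control and 37.3 ± 0.549% in OC2-OE cells (exact permutation p = 0.90). Its place below HNF4G depends on the exon length, which is 10167 bases for HNF4A and 4797 for HNF4G. Without division by length HNF4A was the higher, at 45.0 against 36.0 CPM in control and 58.0 against 46.1 CPM in OC2-OE. In the CEBP sum, CEBPB went from 21.7 ± 2.54% to 32.6 ± 1.31%, CEBPG from 67.6 ± 3.02% to 61.4 ± 1.27%, CEBPD from 10.1 ± 1.09% to 4.98 ± 0.165% and CEBPA from 0.520 ± 0.132% to 1.06 ± 0.119% (n = 3, exact permutation p = 0.10 for each). Without division by exon length the differences between groups were 6.69 percentage points for CEBPB (10.9 with it), -1.91 for CEBPD (-5.16 with it) and 4.92 for FOXA1 (3.21 with it). With HNF4G these are 9 shares of 3 sums, none could pass 0.05 at this number of libraries, and adjustment over them can only raise the p-values.

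Neither of the other ONECUT genes was called. ONECUT1 was at 1.93, 2.21 and 1.48 CPM in control libraries against 1.77, 1.56 and 3.07 CPM in OC2-OE libraries. The groups overlapped, with OC2-OE replicate 3 the highest library and the other OC2-OE libraries within or near the control range. The log2 fold change was 0.19 (standard error 0.24, edgeR adjusted p = 0.479), and -0.16 without OC2-OE replicate 3. ONECUT3 had 2 counts in OC2-OE replicate 1 and 0 in all other libraries, and was not tested.

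Among 27 other regulators of foregut and liver, 19 were tested, 4 rose and 8 fell, with a median log2 fold change of -0.30. NKX2-1, the homeodomain factor of lung and thyroid that works with FOXA factors in lung epithelium, went from 144 ± 6.93 CPM (SD, n = 3) to 31.6 ± 1.13 CPM, a log2 fold change of -2.18 (standard error 0.043, edgeR adjusted p = 7.27e-79). SOX9, a factor of biliary and pancreatic progenitors, rose from 3.81 ± 0.344 CPM (SD, n = 3) to 23.2 ± 0.812 CPM, a log2 fold change of 2.60 (standard error 0.10, edgeR adjusted p = 1.70e-47). SOX17, an endoderm and biliary factor, fell by 1.91 on the log2 scale and RXRA, the main retinoid X receptor of liver, rose by 1.92. XBP1, a factor of secretory cells, fell by 1.47, and NR0B2, a repressor that binds HNF4A and other nuclear receptors, fell by 0.99, both named after their values had been seen. GATA6 at -0.35 and HHEX at 0.29 on the log2 scale did not pass the threshold (edgeR adjusted p = 0.0129 and 0.0321). GATA4, NR1H4 and NR2F2 had too few counts to be tested.

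The fall of the FOXA factors was not shared by all forkhead genes. Of 41 other forkhead genes 26 were tested, 8 rose and 12 fell, with a median log2 fold change of -0.29. FOXJ1, the factor of motile cilia, went from 89.6 ± 4.46 CPM (SD, n = 3) to 26.4 ± 0.618 CPM, a log2 fold change of -1.76. FOXM1, a factor of proliferating cells, went from 320 ± 3.60 to 107 ± 3.84 CPM, a log2 fold change of -1.58. FOXB1 fell by 1.58 and FOXC1 fell by 1.42 on the log2 scale. The largest rises were those of FOXN3 at 0.95 and FOXP1 at 0.87. Within the FOXO genes, FOXO1 at 0.54, FOXO3 at 0.74 and FOXO4 at 0.75 rose, and FOXO6 fell by 1.30 from 22.4 ± 0.944 to 9.04 ± 0.866 CPM (SD, n = 3). These FOXN, FOXP and FOXO genes were picked out after their values had been seen.

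Of 46 nuclear receptors other than the HNF4 genes 36 were tested, 13 rose and 7 fell, with a median log2 fold change of -0.02. Some of them, RXRA and NR0B2 included, are also on the list of foregut and liver regulators, so the lists are not separate. RXRG, a retinoid X receptor, went from 1.41 ± 0.106 CPM (SD, n = 3) to 47.1 ± 1.48 CPM, a log2 fold change of 5.05 (standard error 0.11, edgeR adjusted p = 5.54e-76). RARG, a retinoic acid receptor, rose by 2.17, RXRA by 1.92 and VDR, the vitamin D receptor, by 1.45 on the log2 scale. Of the other retinoid receptors, given after their values had been seen, RXRB rose by 0.32, while RARA at 0.29 and RARB at -0.38 were not called (edgeR adjusted p = 0.00473 and 0.145).

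Genes that mark liver, lung, gut and lymphatic endothelium, where these factors act, are given by list. Of 31 hepatocyte genes 12 were tested, 4 rose and 3 fell, with a median log2 fold change of 0.18, and changes in both directions were large. SERPINA1, a plasma protease inhibitor, rose from 16.5 ± 0.707 CPM (SD, n = 3) to 49.8 ± 2.19 CPM, a log2 fold change of 1.6 (edgeR adjusted p = 1.75e-48). The summed level of the list was between 39.8 and 41.8 CPM in control and between 76.8 and 85.3 CPM in OC2-OE libraries, and without SERPINA1, left out after the values had been seen, between 23.9 and 25.6 CPM and between 28.2 and 33.0 CPM. TTR, the thyroxine carrier of plasma, fell by 2.72 on the log2 scale, from 4.22 ± 0.653 CPM (SD, n = 3) to 0.646 ± 0.326 CPM (edgeR adjusted p = 1.83e-18). CPS1, the entry enzyme of the urea cycle, rose from 0.947 ± 0.204 CPM (SD, n = 3) to 6.08 ± 0.254 CPM, a log2 fold change of 2.67 (edgeR adjusted p = 5.34e-24). VTN, a plasma adhesion protein, rose by 1.94 on the log2 scale. The other genes called were ABCC2, which rose by 1.18, and TAT and F7, of which TAT fell by 1.56 and F7 fell by 1.14. Among genes too low to test, again picked out after their values had been seen, counts over the control and OC2-OE groups were 26 and 1 for HP, 38 and 10 for APOH, 24 and 5 for RBP4 and 11 and 0 for F2, and in the other direction 16 and 33 for FGG and 8 and 15 for AFP, whose groups overlapped. FGA, with 40 and 87 counts and a log2 fold change of 1.03, was tested and not called (edgeR adjusted p = 0.00169). ALB, which defines hepatocytes, had 1, 2 and 1 counts in control libraries against 11, 8 and 6 in OC2-OE libraries and did not pass the filter on low counts. The bile acid enzymes CYP7A1 and CYP8B1 had 0 counts in all libraries.

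Acute phase genes, known targets of CEBPB and CEBPD in liver, were mostly too low to test, with 2 of 16 tested and 6 at 0 counts in all libraries. LCN2, an iron-binding defence protein, had 0, 0 and 1 counts in control libraries against 62, 63 and 71 in OC2-OE libraries. The ratio was 185 with a 95% counting interval from 32.8 to 7350. Of the untested genes, named after their values had been seen, SAA2 had 1 and 17 counts over the control and OC2-OE groups (ratio 16.1, interval 2.52 to 671), ITIH4 1 and 14 (ratio 13.2, interval 2.01 to 559) and CRP 0 and 6. In these 3 genes every OC2-OE library was above every control library, where groups did not overlap in 73.2% of all tested genes. HP, also on this list, was lower as given above. Groups overlapped for CP (5 and 10 counts), SAA1 (0 and 1), and C3 and HAMP (1 and 1 each). FGL1, a secreted liver protein, fell by 1.53 on the log2 scale, from 63.4 ± 1.03 CPM (SD, n = 3) to 22.0 ± 0.778 CPM. With FGL1 as its largest part, the summed level of the list fell from between 62.7 and 65.5 CPM to between 25.6 and 27.8 CPM.

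Lung epithelial genes had 5 of 16 tested, of which 4 fell and 0 rose, with a median log2 fold change of -1.76. The fifth, AGER, had a log2 fold change of 0.87 and was not called in the edgeR fit (adjusted p = 0.00183). It was the 1 lung gene that was higher at a p under 0.05, adjusted or unadjusted, and DESeq2 and limma voom called 0 lung genes higher. At the threshold of 0.001, 1 lung gene was called higher without OC2-OE replicate 2, and 1 with at least 10 counts required in every library. SFTPB, a surfactant protein and a textbook target of FOXA and NKX2-1, went from 20.6 ± 0.677 CPM (SD, n = 3) to 2.17 ± 0.338 CPM, a log2 fold change of -3.25 (standard error 0.12, edgeR adjusted p = 1.83e-50). SFTPD fell by 2.93, and ABCA3, the lipid transporter of lamellar bodies, fell by 1.03 on the log2 scale, from 180 ± 5.45 CPM (SD, n = 3) to 88.4 ± 5.42 CPM. FOXJ1, which is on this list as well as among the forkhead genes, fell as given above. Of the 7 tested among 18 intestinal epithelial genes 3 rose and 3 fell. CDH17, a gut cadherin, fell by 2.48 and AGR2 fell by 0.87, while LGALS4 rose by 1.88 and DPP4 by 0.84 on the log2 scale. Among 10 lymphatic endothelial genes, the markers of the other cell type that PROX1 defines, LYVE1, PDPN and NR2F2 had 0 counts in all libraries and 3 genes were tested. ANGPT2, a vessel growth factor, rose from 12 counts over the control group to 1561 over OC2-OE, ITGA9 rose by 1.59 and RELN fell by 2.19 on the log2 scale.

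Genes near the members on the chromosome were examined in the same fit. Within 100 kb of the 8 members lay 64 other genes, of which 27 were tested, 10 rose and 4 fell, against 27.8% and 28.7% of all tested genes. LINC00261, a noncoding RNA that lies 2356 bases from FOXA2 on the same strand, went from 116 ± 2.04 CPM (SD, n = 3) to 102 ± 3.21 CPM. Its log2 fold change of -0.19 (standard error 0.035, edgeR adjusted p = 7.49e-07) had the sign of that of FOXA2 but was much smaller. CEBPG, described above, lies 71151 bases from CEBPA, and PEPD, a peptidase gene 84416 bases from CEBPA, rose by 1.11 while LRP3 fell by 0.38. Next to CEBPB the noncoding LINC01275 rose by 2.90 on 7 and 58 counts per group, and LINC01273 rose by 1.54 on 28 and 87 counts. The LINC01273 call was lost without control replicate 2 (log2 fold change 1.26, edgeR adjusted p = 0.00199), without OC2-OE replicate 1 (1.19, 0.00638) and by DESeq2's Wald test (1.54, 0.00141).

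Genes on the opposite strand across a member did not follow it past the threshold. CEBPB-AS1 had a log2 fold change of 0.21 (edgeR adjusted p = 0.427), PROX1-AS1 of 0.13 (adjusted p = 0.464) and TTC6, which overlaps FOXA1, of -0.06 (adjusted p = 0.837). ENSG00000274895, which also overlaps PROX1, had a log2 fold change of 0.45 (edgeR adjusted p = 0.152). Reads were counted by strand, so they are separate from those of the members. Near HNF4A, SERINC3 rose by 0.45 and FITM2 and TTPAL by 0.28 each, and PKIG fell by 0.24. MIPOL1, 10427 bases from FOXA1, rose by 0.66 where FOXA1 fell. Near FOXA3, SIX5 rose by 1.02 and DMPK fell by 0.89, while SYMPK, 795 bases from FOXA3, had a log2 fold change of -0.06 (edgeR adjusted p = 0.0366). ENSG00000259605, also near FOXA3, rose by 1.95 on 19 and 79 counts, a call lost without OC2-OE replicate 3 (log2 fold change 1.49, edgeR adjusted p = 0.00240).

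For the member with the largest rise and that with the largest fall, the genes with the most similar profile were sought over the 6 libraries. Log2 CPM of CEBPA correlated best with that of DPP10 (Pearson r = 0.9994), BMF (0.9993) and VPS36 (0.9987) among 11060 genes compared. FOXA2 correlated best with GTF3A (0.9994), NDUFB8 (0.9992) and BICD2 (0.9991) among 11059. The 6 libraries fall into 2 groups, and 2278 and 2760 genes had an r above 0.95 with CEBPA and FOXA2, so these values describe the difference between groups and little else.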

How the data were processed

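The authors deposited, per the file headers, raw counts of read pairs on 62696 genes (GENCODE release 42, GRCh38), with reads aligned by STAR 2.7.9a and counted by strand with featureCounts 1.6.0, and each gene's exon length. The processing notes name edgeR and limma without versions. Symbols were found for 62672 genes. Counts were fitted over all genes in R 4.3.3 with edgeR 4.0.16 (TMM, filterByExpr, robust quasi-likelihood test, group as the only term) and adjusted by the Benjamini-Hochberg method with the study's threshold of 0.001. Standard errors are the absolute log2 fold change over the square root of F. The fit was tested on simulated data, and no result given here rests on that test. FPKM were computed from CPM and exon length. The members and gene lists were chosen with earlier results of these data known. Named genes were the members, ONECUT and CEBP relatives, the 4 largest called changes per list with a mean log2 CPM of at least 0, called neighbours, and the 3 most correlated genes with a mean log2 CPM of at least 3. Genes named outside this rule were chosen after their values were seen. Depth limits the precision of low genes, and intervals cover counting error only. Alternatives included DESeq2 1.42.0 and limma 3.58.1 (voom), other scalings and filters, a replicate block and each library left out in turn.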

Additional observations from a re-analysis of the deposited data

How the results depend on the processing

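Over 15 other settings per member, 117 of 120 fold changes kept their direction and side of the threshold. PROX1 lost its call by DESeq2's Wald test (0.16), and without 1 library its log2 fold change ran from 0.13 to 0.19. Deviations of same-numbered libraries from their group means had r of 0.00115, 0.0301 and 0.0252. Between differently numbered libraries r ran from -0.0316 to 0.00511. Libraries of a group differed by little more than counting noise, so these values cannot tell whether the numbers pair libraries. With the number as a replicate block 4734 genes were higher and 4908 lower, with 5 and 3 members. No member call changed with the block (PROX1 0.16, edgeR adjusted p = 0.000110). Among genes within 100 kb of a member, 10 were higher and 5 lower with the block, against 10 and 4 in the main fit. With a log2 fold change of 1 or more in either direction required, 1435 genes were higher and 1564 lower. On the lists, as higher and lower, there were then 2 and 0 members, 1 and 0 other CEBP factors, 0 and 7 forkhead genes, 7 and 3 nuclear receptors, 2 and 4 regulators, 1 and 1 intestinal genes, and 5 and 0 neighbours. At an adjusted p under 0.05, 7 neighbours were lower, and DMWD, MYPOP and ENSG00000288974 joined the higher neighbours. At that threshold 1 lung gene was higher, as was 1 with at least 10 counts in every library. That filter left 1 hepatocyte gene lower, 0 acute phase genes higher and 1 lymphatic gene higher, since fewer genes were tested, and no filter gave 2 acute phase genes lower. The number of lung genes higher ran from 0 to 1 over left-out libraries, the 1 being without OC2-OE replicate 2. With ONECUT2 left out of the counts, 0 ONECUT genes were higher. The 1 fall among other CEBP factors, CEBPZ, went to 0 with library size only, upper-quartile scaling, DESeq2, no filter and at least 10 counts, and ran from 0 to 1 over left-out libraries. Shares not divided by length changed by 4.92 points for FOXA1, 6.69 for CEBPB and -1.91 for CEBPD. Signs turned for the uncalled CEBPD and ONECUT1, which over left-out libraries ran from -0.12 to 0.02 (without control replicate 3) and from -0.16 (without OC2-OE replicate 3) to 0.37. Where no construction is given, the cause was not tested. Depth limits the precision of genes with few counts, CEBPA among the members (44 and 181 counts per group).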
